A study of Mus musculus with 20 samples.

Results

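The 10 genes described here encode the pyruvate dehydrogenase complex and the enzymes that switch it off and on: the subunits *Pdha1*, *Pdhb*, *Dlat* and *Pdhx*, the kinases *Pdk1*, *Pdk2*, *Pdk3* and *Pdk4*, and the phosphatases *Pdp1* and *Pdp2*. They were chosen by name among the 23420 genes counted, and all 10 were among the 13590 genes that passed the filter on low counts. Whole hearts were compared between 10 male wild type C57BL/6 mice on a control diet and 10 on an iron-deficient diet, which produces iron-deficiency anemia (IDA). All mice were fed their diet for 6 weeks from 3 weeks of age and were 9 weeks old. Labels disagree on whether the deficient diet held more or less than 2 ppm of iron. Each library is 1 mouse, so the spread given is between animals, and all 20 deposited mice were kept because those the study set aside are not named.

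Pyruvate dehydrogenase sits in the mitochondrial matrix and converts pyruvate, the end product of glycolysis, into acetyl-CoA. Its first enzyme, made of *Pdha1* and *Pdhb* products, removes carbon dioxide from pyruvate with the help of thiamine pyrophosphate. The *Dlat* product carries the acetyl group on a lipoyl arm, the *Dld* product reoxidizes that arm, and the *Pdhx* product binds the *Dld* protein to the core. The pyruvate dehydrogenase kinases phosphorylate and inactivate the *Pdha1* protein, and the phosphatases reverse this, so the balance of both decides how much glucose carbon is burned in the heart. Transcript levels do not measure phosphorylation or flux.

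Levels are given as CPM, read pairs scaled to TMM-adjusted library sizes, and as CPM per kb of exonic length where genes are compared with each other. Total counts lay between 6797180 and 8960688 per mouse in the control group and between 6682177 and 7833916 in the IDA group, where 6 of 10 libraries held at most 6806901 counts, against 1 of 10 control libraries. Cardiomyocyte markers were present in every heart, and their summed level lay between 2869 and 3734 CPM in the control group and between 3094 and 3856 CPM in the IDA group. The summed level of the erythroid markers did not overlap between the diets, at 52.2 to 126 CPM in the control group and 134 to 565 CPM in the IDA group. Of the 10 erythroid markers in the file, *Hba-a1*, *Hba-a2* and *Hbb-b2* were at 0 in every mouse, and most of the sum came from *Alas2*, with means of 76.0 and 204 CPM. In whole hearts, fewer cells of a type and less RNA per cell cannot be told apart. Counts were also related to gene length. The median log2 fold change between diets went from 0.34 in the decile of tested genes with the shortest exonic length (median 882.5 bp) to -0.53 in the decile with the longest (median 7763 bp). Each gene's fold change over all mice, with diet as the only factor, is therefore set beside its value after the trend on length was removed in each mouse. Fold changes are written as log2 values with their standard error (SE) and an adjusted p from edgeR.

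Between the diets, 4 of the 10 genes were higher in IDA hearts (*Pdhb*, *Pdhx*, *Pdk2* and *Pdk3*) and 3 were lower (*Pdk1*, *Pdp1* and *Pdp2*) at an adjusted p below 0.05 (edgeR's quasi-likelihood test, Benjamini-Hochberg adjustment over 13590 genes). Of all tested genes, 67.5% passed this threshold, 35.0% as higher and 32.5% as lower, so a count of 7 of 10 is near the background. With the gene length correction, 2 genes were higher (*Dlat* and *Pdk1*) and 1 was lower (*Pdp2*), where 55.0% of all tested genes passed, 31.5% as higher and 23.5% as lower. *Pdp2* was the only one of the 10 that passed in the same direction in both analyses. The median log2 fold change of the 10 genes was -0.02 without the correction and 0.07 with it, and that of all tested genes was 0.02 and 0.04.

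**Figure D1:**
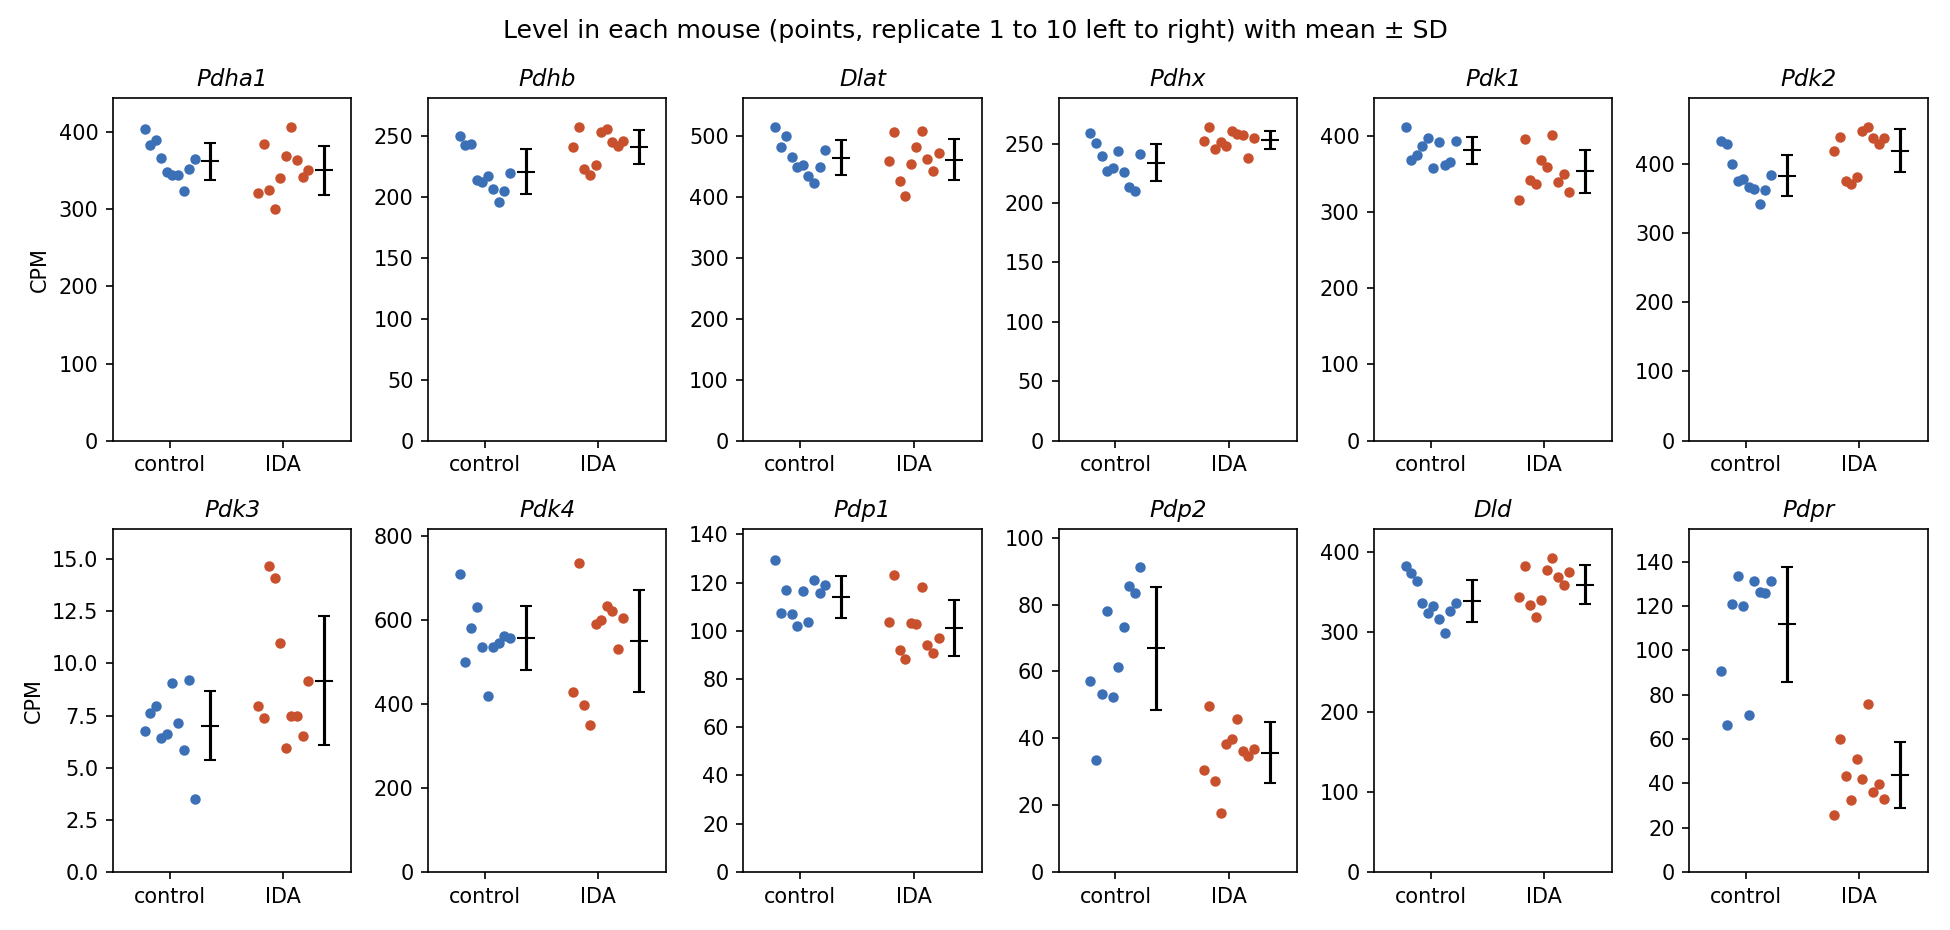
CPM of the 10 genes, *Dld* and *Pdpr* in each mouse, with control mice in blue, IDA mice in orange and the mean ± SD beside them (n = 10 per group). Control and IDA mice overlap in every panel, and they are farthest apart for *Pdp2* and *Pdpr*, where every IDA mouse lies below the control mean.

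The subunit genes were abundant, and their fold changes between diets were small. *Pdha1*, on chromosome X of mm10 from 160122219 to 160138336, ranged from 323 to 403 CPM around a median of 358 in the control group, and from 300.2 to 406 CPM around a median of 347 in IDA mice. The ranges of the diets overlapped almost completely. The fold change was -0.05 on the log2 scale (SE 0.05, adjusted p = 0.41), with a 95% interval from -0.15 to 0.06, and -0.04 with the length correction (adjusted p = 0.59). Of its 2761 exonic bases, 603 are shared with *Map3k15*, and counts there could not be assigned without strand. *Pdhb*, on chromosome 14 from 8165991 to 8172992, ranged from 196 to 250.2 CPM (median 216) in control hearts and from 218 to 258 CPM (median 243.5) in IDA hearts. The difference between diets was 0.13 on the log2 scale (SE 0.05, adjusted p = 0.0190), and 9 of 10 IDA mice were above the control mean. *Pdhb* was called in 75 of 100 fits with 1 mouse of each group left out. *Pdhb* is the shortest of the 10 genes, at 1485 bp. The decile of genes of its length had a median log2 fold change of 0.27, and with the length correction *Pdhb* had -0.08 (adjusted p = 0.13).

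*Dlat*, on chromosome 9 from 50634633 to 50659780, ranged from 422 to 515 CPM (median 458) in control hearts and from 401 to 509 CPM (median 460) in IDA hearts. Its medians were nearly equal, and the fold change was -0.01 (95% interval -0.10 to 0.08, adjusted p = 0.85). *Dlat* is 4035 bp long, and genes of its length had a median of -0.20. With the length correction the difference between diets was 0.18 on the log2 scale (SE 0.05, adjusted p = 0.00555). *Pdhx*, on chromosome 2 from 103021057 to 103073513, ranged from 210 to 258 CPM (median 234.6) in control hearts and from 237.7 to 264 CPM (median 253.4) in IDA hearts. Every IDA mouse exceeded the control mean, although only 2 were above the highest control mouse. The log2 fold change of *Pdhx* was 0.11 (SE 0.04, adjusted p = 0.00937), against 0.08 with the length correction (adjusted p = 0.0559). With length and GC content corrected together it was 0.20 (adjusted p = 0.000188). *Pdhx* was called in 98 of 100 fits with 1 mouse of each group left out. Under the 18 other settings tried, it was called higher in 12 and lost its call in 6. *Dld*, the partner that the complex shares with other oxoacid dehydrogenases, averaged 338 ± 26.4 CPM in control and 359 ± 24.0 CPM in IDA hearts (SD, n = 10) and did not pass the test (log2 fold change 0.08, adjusted p = 0.11, and 0.01 with the length correction, adjusted p = 0.86). With library size as a covariate, *Pdha1* and *Dlat* were called lower in IDA hearts (log2 fold changes -0.16 and -0.11, adjusted p = 0.00195 and 0.0132), while the calls of *Pdhb* and *Pdhx* were lost (-5.7e-05 and 0.04, adjusted p = 0.9987 and 0.26).

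Per kb of exonic length, the subunits lay close together, in the order *Pdhb* (149 ± 12.4 CPM per kb in control hearts, SD, n = 10), *Pdha1* (131 ± 8.86), *Dlat* (115 ± 7.17) and *Pdhx* (92.7 ± 6.14). In IDA hearts the order was the same, at 162 ± 9.40, 127 ± 11.4, 114 ± 8.31 and 100.2 ± 3.11 CPM per kb. Mean ± SD of neighbours in this order overlapped for *Pdhb* with *Pdha1* in control hearts and for *Pdha1* with *Dlat* in both groups, while *Pdhx* stayed below the others. After PCR duplicates were removed, these genes had 0.72 (*Pdhx*) to 1.15 (*Pdhb*) read pairs per exonic base on average. No library exceeded 2.39 in any gene of 200 bp or more. The part of duplicate removal in the closeness of these levels was not tested. The proportions among the subunits varied little between mice. *Pdhb* held 30.5% ± 0.56 of the summed subunit level in control hearts and 32.2% ± 0.59 in IDA hearts, and *Pdha1* held 26.9% ± 0.47 and 25.2% ± 0.90. These shares carry the length trend, since *Pdhb* is the shortest and *Dlat* the longest of the subunits. With the length correction, *Pdhb* had the lowest log2 fold change of the subunits (-0.08). The others had -0.04 (*Pdha1*), 0.18 (*Dlat*) and 0.08 (*Pdhx*), so the direction of the difference in the *Pdhb* share was not settled.

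Among the kinases, *Pdk2* and *Pdk4* made up most of the transcripts and *Pdk3* was nearly absent. Per kb, *Pdk2* had 169 ± 12.9 CPM per kb and *Pdk4* 162 ± 22.1 CPM per kb in control hearts, which overlapped within their spread, as they also did in IDA hearts. *Pdk1* followed at 74.2 ± 3.47 CPM per kb, and *Pdk3* was far below at 3.51 ± 0.82 CPM per kb. In IDA hearts the levels were 185 ± 13.8 for *Pdk2*, 159 ± 35.1 for *Pdk4*, 68.8 ± 5.46 for *Pdk1* and 4.58 ± 1.55 CPM per kb for *Pdk3*, in the same order. As shares of the summed kinase level, *Pdk2* held 41.5% ± 2.42 in control and 44.6% ± 3.13 in IDA hearts, *Pdk4* held 39.4% ± 2.89 and 37.7% ± 4.40, *Pdk1* held 18.2% ± 0.96 and 16.6% ± 1.54, and *Pdk3* held 0.87% ± 0.24 and 1.14% ± 0.53. The ranges of all 4 shares overlapped between the diets. The part of duplicate removal in the levels and shares of the kinase genes was not tested. These shares also carry the length trend. With the length correction, *Pdk1* had a log2 fold change of 0.20, above *Pdk2* (0.06) and *Pdk4* (0.09), while *Pdk3* had 0.28. The direction of the difference in the *Pdk1* and *Pdk2* shares was therefore not settled. Without division by length, *Pdk4* held 41.8% of the kinase counts in control hearts, *Pdk2* 28.9% and *Pdk1*, the longest of these genes, 28.8%.

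**Figure D2:**
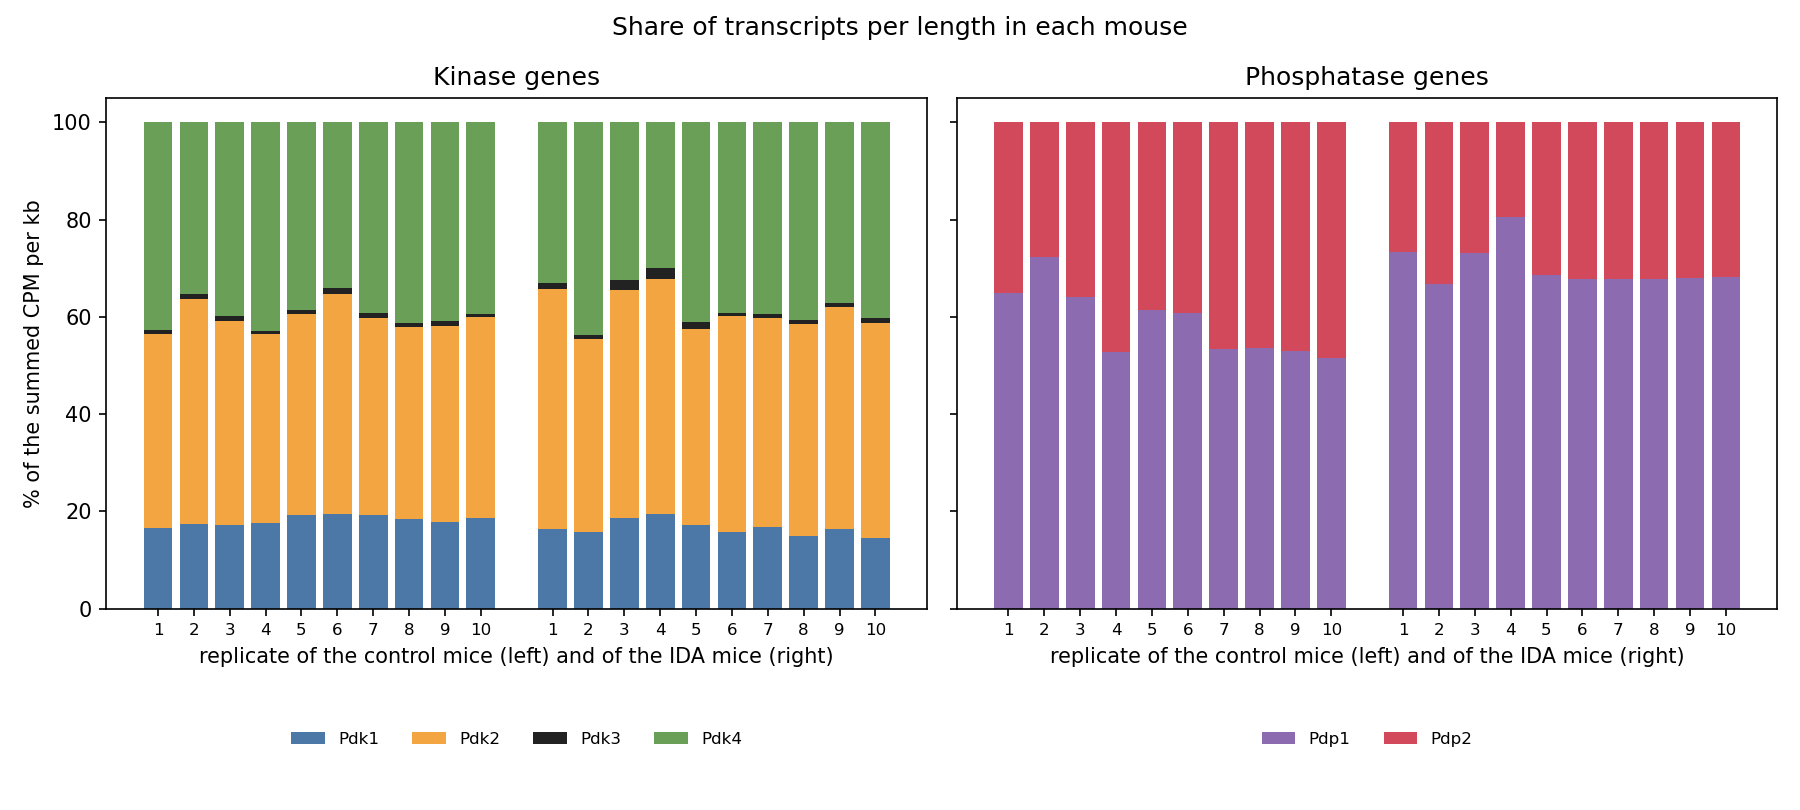
Share of each kinase gene (left) and each phosphatase gene (right) in the summed CPM per kb, stacked to 100% for each mouse. *Pdk2* and *Pdk4* hold most of the kinase level in all 20 mice, and the *Pdp2* share is between 27.7% and 48.5% in control mice and between 19.5% and 33.2% in IDA mice.

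*Pdk1*, a kinase gene known as a target of the hypoxia-inducible factor (HIF), lies on chromosome 2 from 71873272 to 71903858. It ranged from 358 to 412 CPM (median 381) in control hearts and from 316 to 402 CPM (median 346) in IDA hearts. In IDA hearts, 6 of 10 mice lay below the lowest control mouse. The difference between diets was -0.11 on the log2 scale (SE 0.04, adjusted p = 0.0290), and it was called in 58 of 100 fits that each left out 1 mouse of each group. This direction depended on gene length. *Pdk1* is 5137 bp long, the decile of genes of its length had a median log2 fold change of -0.32, and with the length correction *Pdk1* was higher in IDA hearts (log2 fold change 0.20, SE 0.04, adjusted p = 0.000337). Both directions passed the test, so the sign of the *Pdk1* difference was not settled by these counts.

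*Pdk2*, the broadly expressed kinase of the family, lies on chromosome 11 from 95026258 to 95041371. It ranged from 342 to 433 CPM (median 376) in control hearts and from 371 to 453 CPM (median 433) in IDA hearts. In IDA hearts, 5 mice lay above the highest control mouse and 3 lay below the control mean. The fold change was 0.13 on the log2 scale (SE 0.05, adjusted p = 0.0221), and 0.06 with the length correction (adjusted p = 0.34). With length and GC content corrected together it was -0.12 (adjusted p = 0.0801), and with library size as a covariate -0.0060 (adjusted p = 0.86). *Pdk2* was called in 57 of 100 fits that each left out 1 mouse of each group. *Pdk2* had 1.31 read pairs per exonic base on average, *Pdk4* 1.18 and *Pdhb* 1.15, while no library exceeded 2.39 in any gene of 200 bp or more once PCR duplicates were gone. The part of duplicate removal in the differences of such genes was not tested.

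*Pdk3*, the least expressed kinase gene, lies on chromosome X from 93764616 to 93832095. It averaged 7.01 ± 1.65 CPM on the control diet and 9.16 ± 3.09 CPM on the deficient diet (SD, n = 10), from 27 to 118 read pairs per mouse. Replicates 3, 4 and 5 of the IDA group had 14.66, 14.12 and 10.996 CPM, above every control mouse (highest 9.22 CPM). The other IDA mice lay between 5.93 and 9.14 CPM, within the control range. The fold change was 0.40 on the log2 scale (SE 0.17, adjusted p = 0.0498), and 0.28 with the length correction (adjusted p = 0.17). When any of these 3 mice or control replicate 8 was left out, no fit called *Pdk3*. Under the 18 other settings, *Pdk3* was called in 4. The same 3 mice had the highest summed leukocyte markers of the IDA group (242.6, 242.3 and 270.03 CPM, against 190 to 221 CPM in the other IDA mice and 208.9 to 245 CPM in control mice, 4 of 5 markers in the file). They also had 6.21, 2.12 and 1.87 CPM of *Ucp1*, the uncoupling protein of brown fat, against at most 0.88 CPM in the other IDA mice, although control replicate 3 had 4.19 CPM with 7.95 CPM of *Pdk3*. The summed level of all 6 adipocyte markers did not set these 3 mice apart (84.1, 94.6 and 80.2 CPM, against 72.4 to 84.3 CPM in the other IDA mice and 49.7 to 85.4 CPM in control mice). Over all mice, 3 of these markers had higher and 3 had lower means in IDA than in control hearts, and most of the sum came from *Cidea* (means of 52.2 and 71.1 CPM). The part of these cell types in the *Pdk3* difference was not tested.

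*Pdk4*, the kinase gene that fasting and fatty acids induce through PPAR alpha, lies on chromosome 6 from 5483351 to 5496278. It ranged from 419 to 709 CPM (median 552) in control hearts and from 351 to 737 CPM (median 595) in IDA hearts. The groups overlapped over nearly their whole range, and the lowest values of the IDA group were those of replicates 4, 3 and 1 (351, 398 and 428 CPM). The fold change was -0.02 on the log2 scale (SE 0.11, adjusted p = 0.87), with a 95% interval from -0.25 to 0.21, and it was 0.09 with the length correction (adjusted p = 0.49). A difference larger than these bounds was not detected, and *Pdk4* passed the test under none of the 18 other settings tried.

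**Figure D3:**
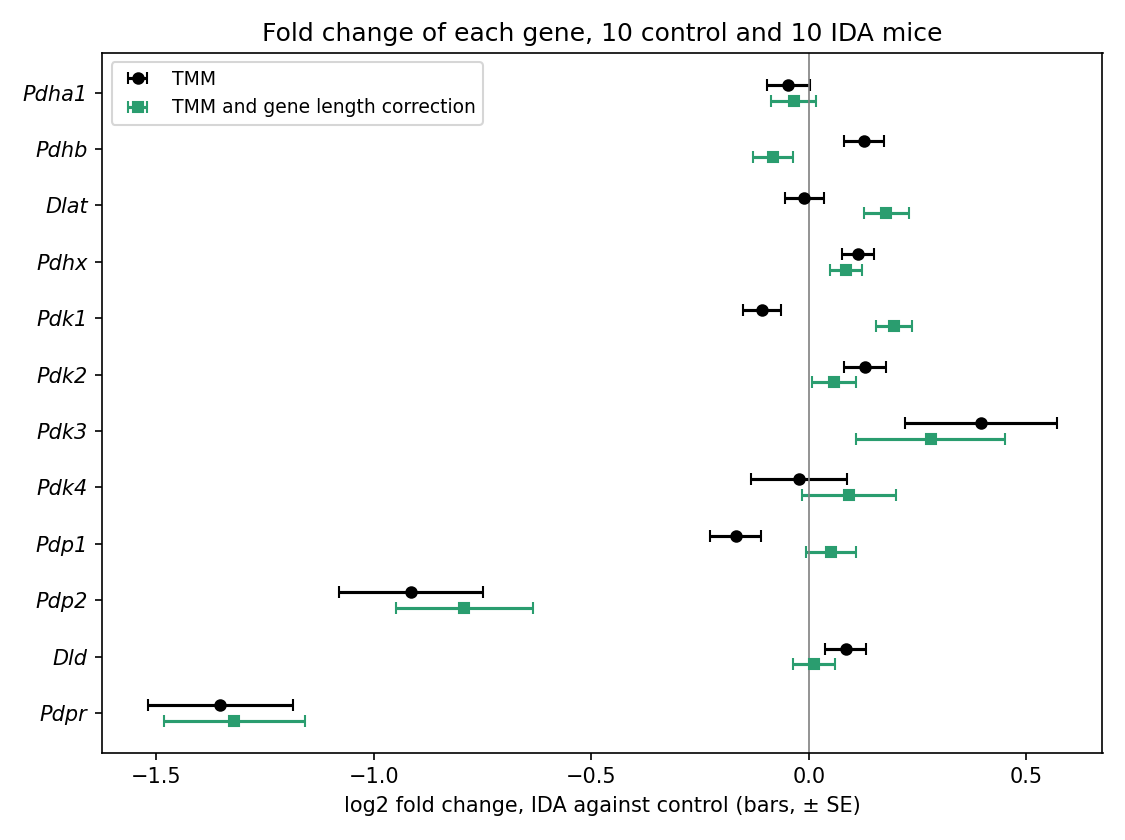
Log2 fold change of each gene between IDA and control hearts (± SE, n = 10 mice per group), without (black circles) and with (green squares) the gene length correction. *Pdp2* at -0.91 and -0.79 and *Pdpr* at -1.35 and -1.32 stay apart from the others, while *Pdhb*, *Dlat*, *Pdk1*, *Pdk4* and *Pdp1* change sign.

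Among the 10 genes, the largest difference was in a phosphatase. *Pdp1*, the catalytic subunit that calcium activates in muscle, lies on chromosome 4 from 11958185 to 11966450. It ranged from 102 to 129.5 CPM (median 116) in control hearts and from 88.5 to 123 CPM (median 99.8) in IDA hearts, and 5 IDA mice lay below the lowest control mouse. The difference between diets was -0.17 on the log2 scale (SE 0.06, adjusted p = 0.0149), close to the median of -0.20 for genes of its length, and it was 0.05 with the length correction (adjusted p = 0.48). With length and GC content corrected together, *Pdp1* was called in the other direction (log2 fold change 0.27, adjusted p = 0.000538).

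*Pdp2*, the other catalytic subunit, lies on chromosome 8 from 104591468 to 104596849. Its levels in control replicates 1 to 10 were 57.1, 33.4, 53.2, 77.9, 52.3, 61.3, 73.4, 85.7, 83.6 and 91.2 CPM. In IDA replicates 1 to 10 they were 30.6, 49.8, 27.3, 17.5, 38.2, 39.9, 45.8, 36.3, 34.8 and 36.7 CPM. Every IDA mouse lay below the control mean, 9 of 10 control mice lay above the highest IDA mouse, and control replicate 2 lay among the IDA mice. The means were 66.9 ± 18.4 CPM and 35.7 ± 9.15 CPM (SD, n = 10), a 1.88-fold lower level in IDA hearts (log2 fold change -0.91, SE 0.17, 95% interval -1.26 to -0.57, adjusted p = 4.41e-05). The length correction gave -0.79 (adjusted p = 0.000205), and genes of its length had a median of -0.12. *Pdp2* was called lower in all 100 fits that each left out 1 control and 1 IDA mouse, with log2 fold changes from -1.06 to -0.77.

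The *Pdp2* difference was also examined within the library numbers given with the samples. These numbers fall into a lower range, with 5 control and 7 IDA mice, and a higher range, with 5 control and 3 IDA mice. In the lower numbers, control mice had 61.3 to 91.2 CPM of *Pdp2* and IDA mice 17.5 to 45.8 CPM, with no overlap (log2 fold change -1.15, adjusted p = 0.000100 from edgeR). In the higher numbers, control mice had 33.4 to 77.9 CPM and IDA mice 27.3 to 49.8 CPM, which overlapped (log2 fold change -0.63, adjusted p = 0.0582). The difference between these fold changes did not pass its own test (interaction of 0.54 on the log2 scale, SE 0.32, adjusted p = 0.85). A fit with the mean of 3 erythroid markers as a covariate gave *Pdp2* a log2 fold change of -0.93 (adjusted p = 0.0144). The summed erythroid level was 52.2 to 126 CPM in control and 134 to 565 CPM in IDA mice, without overlap. This fit therefore cannot separate an erythroid part from diet.

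With *Pdp2* lower, *Pdp1* took up more of the phosphatase level. Per kb, *Pdp2* held 41.2% ± 6.99 of the summed *Pdp1* and *Pdp2* level in control hearts and 29.8% ± 4.27 in IDA hearts (SD, n = 10). In the control group, *Pdp1* had 26.5 ± 2.02 and *Pdp2* 19.1 ± 5.25 CPM per kb, and in the IDA group they had 23.6 ± 2.70 and 10.2 ± 2.62 CPM per kb. Both were below every kinase gene except *Pdk3*.

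*Pdpr*, which is not among the 10 genes but encodes a regulatory subunit of pyruvate dehydrogenase phosphatase, fell further than *Pdp2*. It lies on chromosome 8 from 111094745 to 111135144 and had 66.1 to 134 CPM (median 123) in control hearts and 25.8 to 75.9 CPM (median 40.8) in IDA hearts. In IDA hearts, 9 of 10 mice lay below the lowest control mouse. The fold change was -1.35 on the log2 scale (SE 0.17, adjusted p = 6.06e-07), and -1.32 with the length correction (adjusted p = 1.38e-06). It shares 185 of its 2904 exonic bases with an overlapping gene.

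The promoters of *Pdp2* and *Pdpr* are shown because both genes were lower with and without the length correction. That of *Pdk2* is shown because it holds the same word and was not lower. Sequences are the 250 bases before the start site from RefSeq (GRCm38.p6), and 9 of the 10 genes, with *Dld* and *Pdpr*, had an entry, for 13 windows in all. Capitals mark the words ACGTG and GCGTG on either strand, which form the core of the HIF binding site and, where ACGTG falls on both strands, the E-box CACGTG.
Pdp2 (chr8:104591222-104591471, plus strand): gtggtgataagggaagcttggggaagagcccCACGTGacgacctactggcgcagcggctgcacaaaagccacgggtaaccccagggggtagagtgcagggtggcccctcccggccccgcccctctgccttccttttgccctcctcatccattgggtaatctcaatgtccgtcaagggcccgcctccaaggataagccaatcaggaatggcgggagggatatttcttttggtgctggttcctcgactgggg
Pdpr (chr8:111094495-111094744, plus strand): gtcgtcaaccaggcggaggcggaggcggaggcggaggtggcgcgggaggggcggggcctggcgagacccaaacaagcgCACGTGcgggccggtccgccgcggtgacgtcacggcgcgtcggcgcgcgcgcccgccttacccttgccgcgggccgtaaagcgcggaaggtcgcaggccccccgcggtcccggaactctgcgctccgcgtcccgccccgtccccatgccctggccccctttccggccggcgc
Pdk2 (chr11:95041372-95041621, minus strand): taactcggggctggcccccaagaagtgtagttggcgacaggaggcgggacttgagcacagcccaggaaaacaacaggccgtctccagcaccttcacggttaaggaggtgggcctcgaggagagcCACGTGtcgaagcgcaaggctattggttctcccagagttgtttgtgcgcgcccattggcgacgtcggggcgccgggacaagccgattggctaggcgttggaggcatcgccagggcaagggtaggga
The E-box began 219 bases before the start site in *Pdp2*, 172 in *Pdpr* and 126 in the *Pdk2* window shown. It occurred in 3 of the 13 windows, and in 6.02% of 32851 promoter windows of the same length. The word ACGTG was held by 16.6% and GCGTG by 28.2% of all windows. Such matches describe the sequence and are not evidence of binding.

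**Figure D4:**
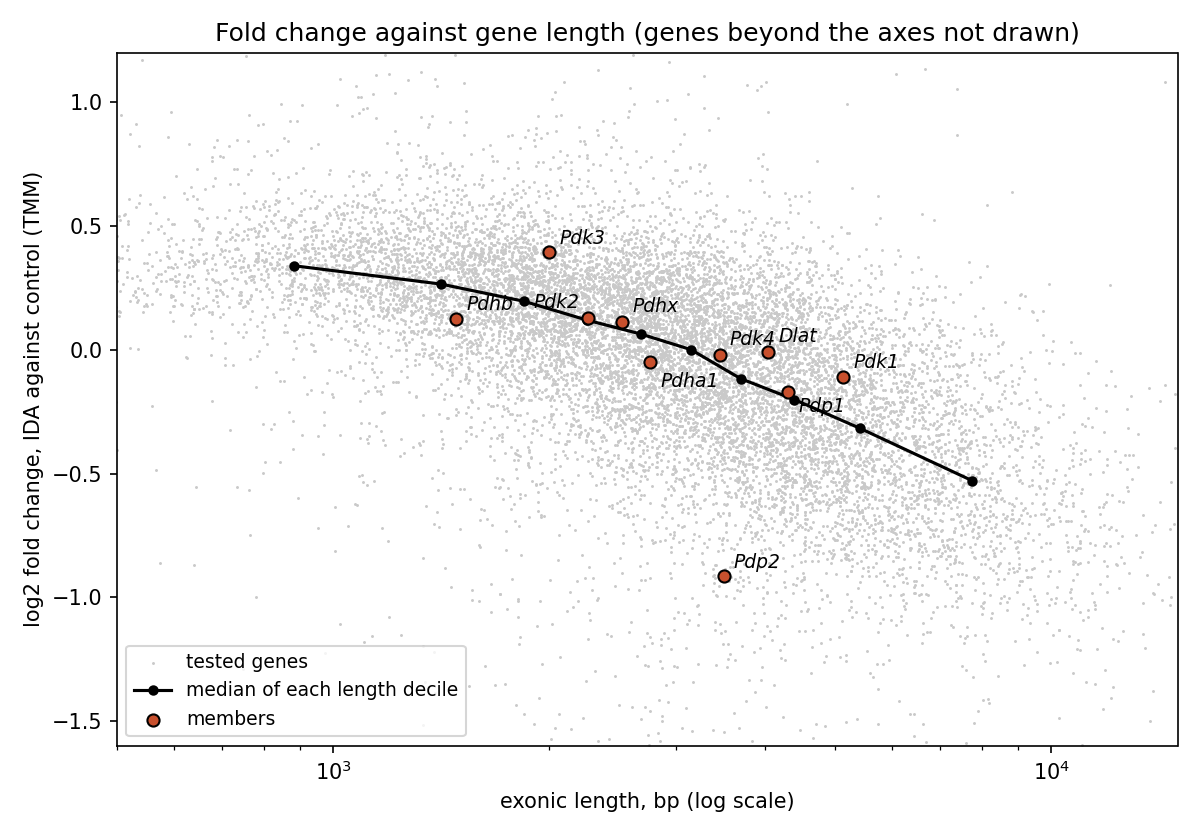
Log2 fold change (IDA against control, TMM) of each tested gene against its exonic length on a log scale, with the median of each decile of genes by length and the 10 genes in orange. The line of medians runs from 0.34 to -0.53, and *Pdp2* lies far below it. The others lie closer to the line, with *Pdk1*, *Dlat* and *Pdk3* among those above it.

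In the other steps of pyruvate oxidation, genes were counted by lists. Of 11 genes for cofactors and lipoylation, 7 were higher and 2 lower (edgeR, adjusted p below 0.05), with a median log2 fold change of 0.24. Of all tested genes, 35.0% were higher and 32.5% lower, or 31.5% and 23.5% with the length correction. With that correction the counts in the list were 3 and 3 and the median 0.06, and the median length of these genes was 1668 bp. *Mecr*, an enzyme of mitochondrial fatty acid synthesis that feeds lipoyl production, rose (log2 fold change 0.51, adjusted p = 3.15e-07), and *Oxsm*, of the same pathway, fell (-0.42, adjusted p = 9.86e-05). *Slc19a2*, a thiamine transporter, fell (-0.52, adjusted p = 2.5e-05). These 3 kept their direction and their call with the length correction (0.28, -0.27 and -0.39). *Lias*, the iron-sulfur enzyme that makes the lipoyl group and was singled out after its values were seen, averaged 86.3 and 102 CPM in control and IDA hearts (log2 fold change 0.24, adjusted p = 1.27e-05, and 0.07 with the length correction, adjusted p = 0.14).

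Among 9 genes of the sister oxoacid dehydrogenases, 3 were higher and 3 lower (3 and 4 with the length correction), where the shares of all tested genes were 35.0% and 32.5% (31.5% and 23.5%). *Dbt*, the branched-chain counterpart of *Dlat*, fell from 163 to 108 CPM (log2 fold change -0.60, adjusted p = 7.63e-07, and -0.51 with the length correction). *Ppm1k*, the phosphatase that activates the branched-chain complex, fell by 0.56 on the log2 scale (adjusted p = 4.32e-05) and by 0.22 with the length correction (adjusted p = 0.0275). *Bckdk*, the kinase of that complex and outside the naming rule, had 0.24 and 0.27 (adjusted p = 6.55e-05 and 9.64e-05). *Dhtkd1*, a dehydrogenase of lysine breakdown, was low, at 7.05 CPM in control and 2.25 CPM in IDA mice (log2 fold change -1.65, adjusted p = 6.86e-07, and -1.53 with the length correction).

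Of 16 genes for pyruvate supply and its other uses, 8 were higher and 0 lower by edgeR, with 0 lower also at an unadjusted p below 0.05 and by DESeq2 (6 higher and 1 lower with the length correction), and 35.0% and 32.5% of all tested genes were higher and lower (31.5% and 23.5% with the length correction). The largest change was in *Slc16a3*, a lactate exporter, at 6.96 CPM in control and 13.3 CPM in IDA mice (log2 fold change 0.94, adjusted p = 2.29e-05, and 0.92 with the length correction). *Ldha*, which makes lactate from pyruvate, differed by 0.22 on the log2 scale (adjusted p = 0.000172) and by 0.09 with the length correction (adjusted p = 0.0837). *Mpc2*, a subunit of the mitochondrial pyruvate carrier, had 0.22 (adjusted p = 0.000622) and -0.09 (adjusted p = 0.0682), so its sign changed.

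Of 24 tested HIF targets and HIF subunits, 13 were higher and 6 lower (11 and 2 with the length correction), beside 35.0% and 32.5% of all tested genes (31.5% and 23.5%). *Ankrd37*, *Egln3* and *Ndufa4l2* rose (log2 fold changes 0.99, 0.74 and 0.60, adjusted p = 2.63e-07, 1.45e-07 and 1.65e-07), also with the length correction (0.69, 0.74 and 0.30). *Pfkfb3*, which makes an activator of glycolysis, fell (-0.72, adjusted p = 0.000186, and -0.40 with the length correction). Beside these, the log2 fold change of *Pdk1* was -0.11 without and 0.20 with the length correction. Of 23 tested PPAR alpha targets and regulators of *Pdk4*, 7 were higher and 5 lower (9 and 2 with the length correction), beside the same 35.0% and 32.5% of all tested genes (31.5% and 23.5%). *Angptl4* rose from 56.2 to 102 CPM (log2 fold change 0.85, adjusted p = 0.0028, and 0.71 with the length correction, adjusted p = 0.0141), *Foxo3* fell from 90.6 to 41.3 CPM (-1.14, adjusted p = 5.28e-05, and -1.11 with the length correction), and *Ppara* fell without (-0.59, adjusted p = 7.24e-06) but not with the length correction (-0.11, adjusted p = 0.16).

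Although *Pdk4* did not pass the test between diets, it varied between mice together with PPAR alpha targets. In all, 18 relations were computed within the groups (log2 CPM, n = 10 mice each, permutation tests with 100000 resamples, two-sided, Benjamini-Hochberg adjusted over the 18), and those with an adjusted p below 0.05 for r on this scale were all in the IDA group. In IDA hearts, *Pdk4* followed *Ucp3*, a mitochondrial carrier gene (Pearson's r = 0.95, raw p = 8.0e-05, adjusted permutation p = 0.00144, Spearman's rho = 0.77, raw p = 0.0117, adjusted p = 0.0444). Without the 2 mice farthest from the *Ucp3* median, r was 0.91, and within the 7 IDA mice of the lower library numbers it was 0.96. In control hearts r was 0.50 (raw permutation p = 0.15, adjusted p = 0.26, rho = 0.48, raw p = 0.17, adjusted p = 0.33), and the difference between the groups was not tested.

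*Pdk4* also followed *Angptl4* (r = 0.89, raw permutation p = 0.00076, adjusted p = 0.00342, rho = 0.85, raw p = 0.00284, adjusted p = 0.0256) and *Acot1* (r = 0.87, raw p = 0.00042, adjusted p = 0.00342, rho = 0.93, raw p = 0.00035, adjusted p = 0.00630) in IDA hearts. Without the 2 farthest mice these were 0.62 and 0.66, and within the 7 IDA mice of the lower library numbers 0.92 and 0.96. In control hearts r was 0.44 and 0.68 (adjusted permutation p = 0.36 and 0.0840). With the length correction, r with *Acot1* in control hearts was 0.74 (adjusted permutation p = 0.0462, rho = 0.70, adjusted p = 0.0784), and 0.53 without the 2 farthest mice. These relations are between genes counted in the same libraries and share their depth.

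*Pdk1* followed *Bnip3*, a HIF target of mitochondrial autophagy, in IDA hearts (r = 0.90, raw permutation p = 0.00062, adjusted p = 0.00342, rho = 0.77, raw p = 0.0126, adjusted p = 0.0444), with r = 0.78 without the 2 farthest mice and 0.86 within the lower library numbers. In control hearts r was 0.50 (adjusted permutation p = 0.26). With the length correction r was 0.47 in IDA hearts (adjusted permutation p = 0.22) and 0.70 in control hearts (adjusted permutation p = 0.0560), and in control hearts it was 0.05 without the 2 farthest mice. For *Ldha*, *Slc2a1* and *Pgk1*, r with *Pdk1* lay between -0.27 and 0.36 in the groups, and none passed. With the length correction, r of *Pdk1* with *Ldha* was 0.70 in control hearts (permutation p = 0.0227, adjusted p = 0.0560, rho = 0.67) and 0.71 in IDA hearts (permutation p = 0.0280, adjusted p = 0.0560, rho = 0.72), with *Pgk1* 0.40 and 0.51, and with *Slc2a1* -0.46 and -0.55 (adjusted permutation p from 0.17 to 0.28 for the latter 2 genes). *Pdp2* and *Pdpr*, a pair added after their values were seen, had r = 0.73 in control hearts (raw permutation p = 0.0183, adjusted p = 0.0548, rho = 0.76, raw p = 0.0148, adjusted p = 0.0444) and 0.62 in IDA hearts (raw p = 0.0578, adjusted p = 0.13, rho = 0.71, raw p = 0.0273, adjusted p = 0.0701). Without the 2 farthest mice these were 0.58 and 0.62, and within the 7 IDA mice of the lower library numbers r was 0.61. The 5 control mice in each range of library numbers were too few for a value of their own.

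**Figure D5:**
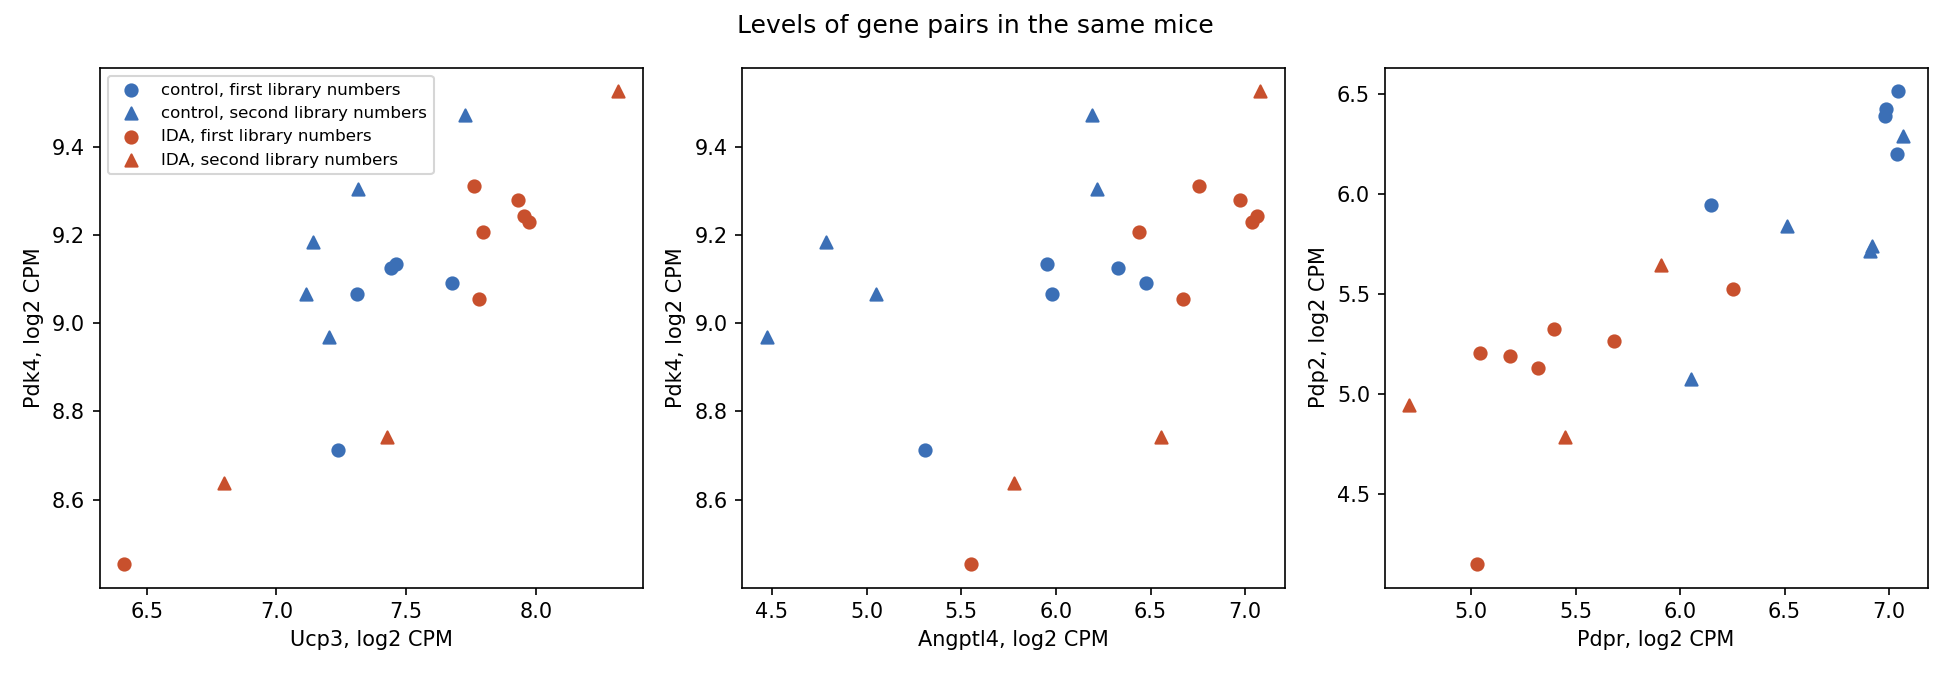
Log2 CPM of *Pdk4* against *Ucp3* and *Angptl4*, and of *Pdp2* against *Pdpr*, in each mouse, with control mice in blue, IDA mice in orange and circles or triangles for the lower (first) or higher (second) library numbers. In the IDA group *Pdk4* follows *Ucp3* (r = 0.95), and the IDA mice lie at low *Pdpr* and low *Pdp2*.

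The genes whose levels varied most like *Pdk4*, *Pdk2*, *Pdk1* and *Pdp2* were found from deviations from the group means over all 20 mice, as a description. For *Pdk4* they were *Dctn4* (r = 0.93), *Fam134b* (0.91), *Acot2* (0.91), *Akap1* (0.91) and *Oxsr1* (0.90), and *Acot2* and *Fam134b* were also in the top 5 with the length correction. For *Pdk2* they were *Uqcrc1*, *Fh1*, *Hrc* and *Acaa2*, each at r = 0.99 and among the top 5, and *Hrc* was also in the top 5 with the length correction. *Pdk2* had 2764 to 3160 read pairs per mouse, while total counts were 6682177 to 8960688, so its CPM also varied with library size. For *Pdk1* they were *Usp47* (0.90), *Usp15* (0.89), *Slain2* (0.87), *Hnrnpul2* (0.87) and *Cul4a* (0.87), and *Usp47* was also in the top 5 with the length correction. For *Pdp2*, added after its values were seen, they were *Adra1a* (0.90), *Setd1b* (0.89), *Kcnj2* (0.89), *Cecr2* (0.87) and *Zcchc2* (0.86), and *Adra1a*, *Kcnj2* and *Setd1b* were also in the top 5 with the length correction. Among the 10 genes themselves, *Pdhb* and *Pdk2* (r = 0.95) and *Pdha1* and *Dlat* (r = 0.94) varied most alike in log2 CPM, and with the length correction *Pdha1* and *Pdhb* (r = 0.97) and *Pdha1* and *Pdk2* (r = 0.94) did. *Pdp2* and *Pdk3* were the pair with the most negative value (r = -0.56). All these values are between genes counted in the same libraries, and the part of library size in them was not tested.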

How the data were processed

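Polyadenylated RNA of 20 hearts was sequenced. The authors used STAR for alignment to mm10, took out PCR duplicates, and deposited unnormalized exonic read-pair counts per gene (featureCounts, version 1.4.5-p1, without strand), with the exonic length of each gene. Total counts were 6682177 to 8960688 per mouse, and the tests took their error from the spread between mice. Each mouse was its own library, and the libraries that were most alike still differed beyond sampling noise (chi-square of 1.50 per degree of freedom). Values came from 10 control and 10 IDA mice, grouped by their labels.

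A gene was kept where 10 or more mice had 1 CPM or more (13590 kept, 9830 left out). TMM scaling and the quasi-likelihood test of edgeR (version 4.0.16, R version 4.3.3) were used with diet as the only factor, with Benjamini-Hochberg adjustment, a threshold of 0.05 and a prior count of 2 for log2 CPM. DESeq2 (version 1.42.0) was an alternative. For the gene length correction, a loess fit (span 0.5, degree 1) of each mouse's deviations on log2 exonic length was entered as edgeR offsets, which takes out any trend with length, whatever its source. GC content was known for 94.0% of tested genes. Other alternatives changed the scaling, filter and call rule, added covariates or a replicate block, left out mice, or split the mice by library number. Promoter windows came from RefSeq. The members and lists were chosen with earlier results of these data known. Some results for single genes outside the 10 are not reported here. Values are given for the 10 genes, and for genes of the other lists with an absolute log2 fold change of at least 0.5 or among the 3 largest of their list. The tests were tried on simulated data with known changes, with and without a trend on gene length.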

Additional observations from a re-analysis of the deposited data

Results flagged for a closer look

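*Pdk3* in control replicate 10 lay below the other 9 control mice, at 3.51 CPM against 5.85 to 9.22 CPM. The gap to its nearest neighbour was 0.524 of the range of the group on the log2 scale, above Dixon's 95% critical value for 10 mice. This rule was applied to 24 groups, and chance alone passes about 1 in 20 groups. The *Pdk3* value of this mouse rests on 27 read pairs. In the fits without it, *Pdk3* was called in 1 of 10.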

How the results depend on the processing

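The 10 genes gave 4 higher and 3 lower calls. Counts stayed within 1.5 times of these with DESeq2 size factors, upper-quartile factors, no filter, a filter of 5 CPM, the DESeq2 Wald test, adipocyte markers as a covariate and library number as a covariate. With the gene length correction there were 2 higher and 1 lower call, and the log2 fold changes of *Pdhb* (-0.082), *Dlat* (0.18), *Pdk1* (0.20), *Pdk4* (0.092) and *Pdp1* (0.050) changed sign. With length and GC content corrected together there were 4 higher calls and 1 lower call, and *Pdha1* (0.086), *Pdk4* (0.22), *Dlat* (0.24), *Pdk1* (0.27), *Pdk2* (-0.12) and *Pdp1* (0.27) changed sign. With library size as a covariate, 1 was higher and 5 were lower, *Pdha1* and *Dlat* among them, and *Pdhb* (-5.7e-05) and *Pdk2* (-0.0060) changed sign. With erythroid markers as a covariate, 0 were higher by edgeR, also at an unadjusted p below 0.05, and 2 were lower. The log2 fold changes of *Pdhb* (0.13), *Pdhx* (0.12), *Pdk2* (0.15) and *Pdk3* (0.49) were then no smaller than without the covariate. The summed erythroid level did not overlap between the diets, so this fit cannot separate an erythroid part from diet. An absolute log2 fold change of at least 0.3 left 1 higher and 1 lower call, and p below 0.01 in both packages left 1 higher and 2 lower calls. In 100 fits that left out a mouse of each group, 0 to 4 were higher and 1 to 4 lower. *Pdha1*, *Dlat* and *Pdk4*, whose fold changes lay near 0, also changed sign without a call in some fits that had no length correction.

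The lower and higher library numbers were split after the data were seen. With library number as a covariate and the length correction, 3 were higher and 1 was lower, and *Pdhb* (-0.069), *Dlat* (0.20), *Pdk1* (0.21), *Pdk4* (0.11) and *Pdp1* (0.060) changed sign. Within the lower numbers with the length correction 3 were higher and 1 was lower, and *Pdhb* (-0.0018), *Dlat* (0.25), *Pdk1* (0.24) and *Pdp1* (0.018) changed sign, as did *Pdha1* (0.053) and *Pdk4* (0.23). Within the higher numbers, 0 were higher and 0 lower (edgeR, 8 mice; 1 and 1 at an unadjusted p below 0.05), and with the length correction 0 were higher and 1 lower (0 and 3 unadjusted), while *Pdhb* (-0.19), *Dlat* (0.11), *Pdk1* (0.14), *Pdk2* (-0.070) and *Pdp1* (0.11) changed sign. *Pdp2* was lower under all 18 settings and called in 16, the exceptions being both fits within the higher numbers. The cause of these shifts was not tested.

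Mice that share a replicate number were not taken as pairs. In both groups, replicates 1 to 3 had higher library numbers and replicates 6 to 10 had lower ones. Correlations of the deviations of such mice lay between -0.28 and 0.26, and 3 of 10 control mice correlated best with the IDA mouse of their number. With the replicate block, 3 were higher and 2 lower (*Pdp2* -0.90, *Pdk1* -0.11 with adjusted p = 0.0552, *Pdk3* 0.37 with adjusted p = 0.0911). With the replicate block and the length correction, 2 were higher and 1 lower, and *Pdhb* (-0.082), *Dlat* (0.18), *Pdk1* (0.20), *Pdk4* (0.074) and *Pdp1* (0.049) changed sign. Of all values that changed sign, the ones called in the new direction were *Dlat* and *Pdk1* in each fit with the length correction except that within the higher numbers, *Pdp1* with length and GC content corrected, and *Pdhb* within the higher numbers with the length correction. Depth limits *Pdk3*, which rests on 27 to 118 read pairs per mouse.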
